A study of Mus musculus with 21 samples.

Results

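Egress and chemotactic receptor genes were followed in cultured mouse natural killer (NK) cells that lacked Ikaros, encoded by Ikzf1, its relative Aiolos, encoded by Ikzf3, or both. The set held 9 genes, taken by name from the 11736 genes of the deposited table. They were the sphingosine 1-phosphate (S1P) receptor S1pr1 with Klf2 and Cd69, the chemokine receptors Ccr7, Cxcr3 and Cxcr4, the oxysterol receptor Gpr183, the leukotriene receptor Ltb4r1 and the chemerin receptor Cmklr1. All 9 passed the filter on low values that kept 10032 genes, Ccr7 only through the cells that lacked both factors.

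NK cells were sorted from spleen and kept in Iscove's medium with serum, GlutaMAX, beta-mercaptoethanol, antibiotics and recombinant human interleukin 15 (IL-15) at 50 ng/ml, a cytokine that NK cells need to survive. Polyadenylated RNA was sequenced from 3 libraries of Ikzf1/Ikzf3 double knockout cells (DKO; libraries S5 to S7), 4 of Ikzf1 KO cells (S12 to S15), 4 of Ikzf3 KO cells (S1 to S4) and 4 of Cre only cells (S16 to S19). The deletions were conditional, restricted to NK cells, and Cre only mice carried the recombinase without them; all 4 groups were cultured alike. The labels call the libraries biological replicates and give neither the promoter that drives Cre nor the age or sex of the mice, so p-values measure the spread between these libraries. A further 6 samples, sorted but not cultured, were not analysed here.

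Lymphocytes leave tissues along gradients of S1P, which S1PR1 senses. The transcription factor KLF2 switches on S1pr1 in T cells, while CD69 binds the receptor protein and draws it off the cell surface. Chemokine, oxysterol, leukotriene and chemerin receptors signal through G proteins and steer cells toward their ligands in lymphoid organs and at sites of inflammation. Ikaros and Aiolos are zinc finger proteins that bind DNA at motifs built around GGGAA.

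The bases upstream of the start are shown for Gpr183 and Ltb4r1, because the DKO cells departed from the sum of the single deletions in opposite directions at these genes. In both, this stretch also holds almost no annotated exon sequence of the gene itself. Promoters of 6 of the 9 members were found in the RefSeq table (build GRCm38.p6). The 250 bases before the RefSeq start are printed 5′ to 3′ on the strand of the gene, with GGGAA or its reverse complement TTCCC in capitals. The Gpr183 stretch lies at chr14:121965194-121965443 on the minus strand and the Ltb4r1 stretch at chr14:55765712-55765961 on the plus strand.
Gpr183: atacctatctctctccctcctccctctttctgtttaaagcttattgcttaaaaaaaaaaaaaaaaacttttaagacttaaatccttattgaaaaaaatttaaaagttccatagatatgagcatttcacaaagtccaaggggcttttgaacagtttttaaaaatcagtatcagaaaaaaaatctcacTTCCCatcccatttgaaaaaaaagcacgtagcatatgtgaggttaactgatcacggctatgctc
Ltb4r1: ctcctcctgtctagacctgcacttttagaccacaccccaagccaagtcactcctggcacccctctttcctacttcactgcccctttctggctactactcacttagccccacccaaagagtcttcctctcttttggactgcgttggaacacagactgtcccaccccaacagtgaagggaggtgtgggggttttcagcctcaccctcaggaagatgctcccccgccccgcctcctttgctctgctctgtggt

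Both strands were searched from 250 bases before to 50 after the start for GGGAA, for CACCC, a core that KLF proteins bind, and for TGANTCA, the site of AP-1 proteins, and letters of one match could belong to another. Gpr183 held 1 GGGAA match, at base -64 from the start, no CACCC and no TGANTCA match. Ltb4r1 held no GGGAA match and 5 CACCC matches. GC content was 35.3% in the Gpr183 window and 56.3% in that of Ltb4r1. Among the 32851 promoters of the table, 62.7% held GGGAA, 57.5% held CACCC, 7.81% held TGANTCA and 1.02% held CACCC at least 5 times. Cxcr4 and Cxcr3 each held 1 GGGAA match, while Klf2 and Cmklr1 held none. The RefSeq start of Cmklr1 lies 6823 bases inside the gene position given below, so bases before that outer start were not searched.

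Levels are given in RPKM, a read count divided by gene length and sequencing depth, as the authors deposited them. Recovered depths ran from 8.61 to 21.2 megareads per library in 11291 genes. The label check held: Ikzf1 stood at 25.3 to 38.5 RPKM in DKO and 18.3 to 19.9 RPKM in Ikzf1 KO libraries, against 57.7 to 69.4 RPKM in Cre only libraries, and Ikzf3 at 20.0 to 23.7 RPKM in DKO and 15.2 to 20.2 RPKM in Ikzf3 KO libraries, against 37.7 to 45.0 RPKM in Cre only libraries. Values over a whole gene can include exons that remain after the deletion. The 7 measured NK cell markers of a list of 8 summed to 1660 to 1995 RPKM in DKO, 1467 to 1678 RPKM in Ikzf1 KO, 1235 to 1941 RPKM in Ikzf3 KO and 1952 to 2061 RPKM in Cre only libraries. Libraries S5, S15, S18 and S19, a set across genotypes chosen after seeing the data, were left out together, as were S3 and S4 of Ikzf3 KO. Whether these libraries form a group was not tested. Calls on genes rerun without them that end there are named below. Klf4, Foxo1, Ptgdr2, Ptger3 and Lta4h were not rerun.

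Some genes of T cells moved with the DKO genotype. The 6 measured T cell markers of a list of 8 summed to 197, 458 and 387 RPKM in DKO libraries S5, S6 and S7, to 24.4 to 67.3 RPKM in Ikzf1 KO, 31.1 to 62.2 RPKM in Ikzf3 KO and 20.2 to 99.8 RPKM in Cre only libraries. Cd3d, Cd3e and Trac, which encode chains of the T cell receptor complex, rose in DKO against Cre only cells by 3.54, 4.55 and 2.82 on the log2 scale, while Cd3g did not pass the test (log2 fold change 0.76 ± 0.58 (SE), adjusted p = 0.398). The co-receptors Cd4 and Cd8a did not pass the filter. Cd4 ranged from 0.2563 to 1.299 RPKM in DKO libraries. It reached at most 0.1433 RPKM in Ikzf1 KO, 0.06263 RPKM in Ikzf3 KO and 0.5225 RPKM in Cre only libraries. Cd8a was not raised in DKO libraries, at 0.0355 to 0.0554 RPKM. It ranged from 0.0611 to 0.368 RPKM in Ikzf1 KO, 0 to 0.0313 RPKM in Ikzf3 KO and 0 to 0.761 RPKM in Cre only libraries. S5 had the lowest T cell marker sum of the DKO libraries and their highest S1pr1, Klf2, Ccr7, Cxcr3 and Gpr183 values, but their lowest Cxcr4 value. Among Cre only libraries the marker sum was 97.6 and 99.8 RPKM in S16 and S17, against 45.1 and 20.2 RPKM in S18 and S19. There S1pr1, Ccr7, Gpr183 and Cxcr4 were higher in S16 and S17, Klf2 was lower, and Cxcr3 did not separate the pairs. What part T cell transcripts have in the receptor values was not tested, and in bulk RNA fewer cells of a type and less RNA per cell cannot be told apart. Of the other lists, 1 of 6 B cell markers was measured (Cd79b, at most 2.23 RPKM), none of 3 erythroid markers, 4 of 7 myeloid markers (14.6 to 23.1 RPKM in DKO, 61.5 to 75.8 RPKM in Ikzf1 KO, 44.5 to 113 RPKM in Ikzf3 KO and 100.5 to 148 RPKM in Cre only libraries), 1 of 3 plasmacytoid dendritic cell markers (66.6 to 162 RPKM in DKO, 81.6 to 112 RPKM in Ikzf1 KO, 38.1 to 47.4 RPKM in Ikzf3 KO and 44.2 to 59.1 RPKM in Cre only), 5 of 5 helper-like innate lymphoid markers (50.4 to 90.8 RPKM in DKO, 89.4 to 134 RPKM in Ikzf1 KO, 84.9 to 130 RPKM in Ikzf3 KO and 77.7 to 152 RPKM in Cre only) and 2 of 4 mast cell and basophil markers (5.38 to 39.0 RPKM in DKO, 49.5 to 79.2 RPKM in Ikzf1 KO, 35.8 to 91.2 RPKM in Ikzf3 KO and 9.80 to 50.6 RPKM in Cre only). The plasmacytoid marker measured was Bst2, while Siglech and Tcf4 were not among the deposited genes. Bst2 lay above every Cre only library in all DKO and Ikzf1 KO libraries. A single gene cannot tell the presence of such cells from a change of that gene. The myeloid sum lay below every Cre only library in all DKO and Ikzf1 KO libraries. That sum rests mainly on Itgax (2.71 to 15.5 RPKM in DKO and 76 to 114 RPKM in Cre only libraries) and Cd68. Lyz2 went the other way, at up to 1.94 RPKM in DKO and 0.473 RPKM in Ikzf1 KO against 0 in Cre only libraries. So did Cd14 in Ikzf1 KO libraries (1.15 to 1.52 RPKM, against 0.0778 to 0.614 RPKM in Cre only). The part of these genes in the results was not tested.

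**Figure D1:**
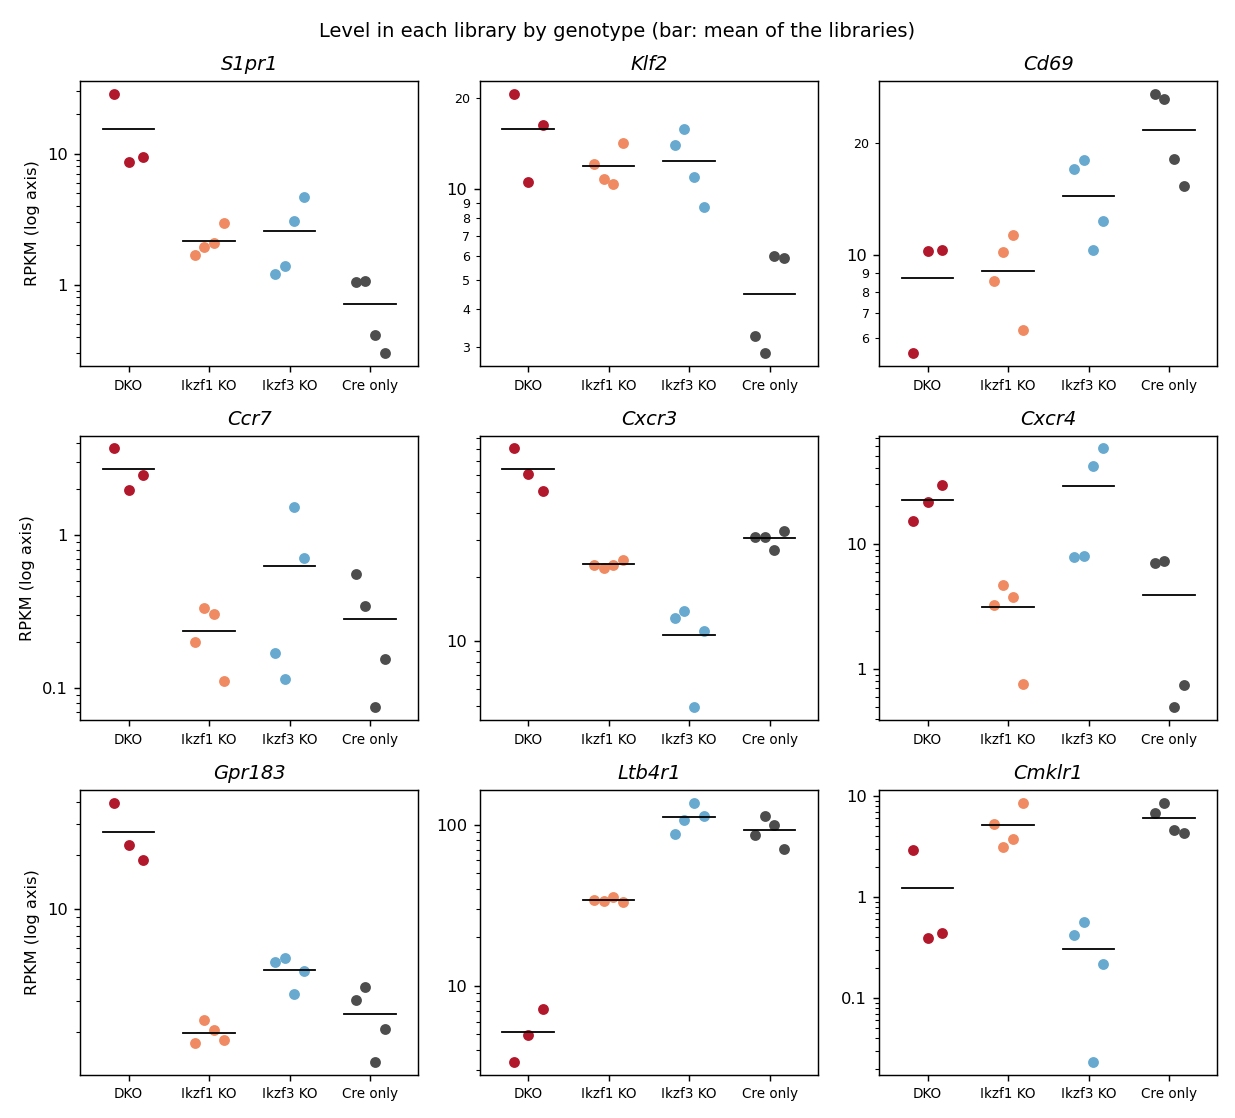
RPKM of the 9 genes on log axes, 1 point per library and a bar at the mean of 3 DKO, 4 Ikzf1 KO, 4 Ikzf3 KO and 4 Cre only libraries. S1pr1, Ccr7, Cxcr3 and Gpr183 stand highest in the 3 DKO libraries and Ltb4r1 stands lowest there, at 3.37 to 7.18 RPKM.

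All 9 genes changed in DKO cells against Cre only cells: 6 rose and 3 fell. S1pr1, Klf2, Ccr7, Cxcr3, Cxcr4 and Gpr183 were higher, and Cd69, Ltb4r1 and Cmklr1 were lower. The changes ran from 3.58 on the log2 scale for S1pr1 to -4.06 for Ltb4r1. Among all genes tested 8.06% rose and 10.6% fell in this comparison. The median log2 fold change of the members was 1.72, beside -0.00077 over all genes, and their median absolute change was 2.17, beside 0.29. Over the alternatives 6 to 9 members were called. The members were chosen with earlier results of these data known, and Ccr7 passed the filter only through DKO cells. Counts and medians of the members are therefore a description, here and in the other comparisons, and not a test of the set.

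Each single deletion changed fewer of them. In Ikzf1 KO cells Klf2 rose while Cd69 and Ltb4r1 fell, and 6 members did not pass the test; of all genes 3.54% rose and 2.78% fell. In Ikzf3 KO cells Klf2 and Cxcr4 rose while Cxcr3 and Cmklr1 fell, and 5 members did not pass; of all genes 6.3% rose and 7.88% fell. Median log2 changes of the members were -0.22 in Ikzf1 KO and 0.40 in Ikzf3 KO cells, beside -0.0058 and -0.016 over all genes. The 3 comparisons share the Cre only libraries. Fold changes are on the log2(RPKM + 0.5) scale, which understates the change of low genes, and every adjusted p comes from limma with Benjamini-Hochberg adjustment over all 10032 genes.

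**Figure D2:**
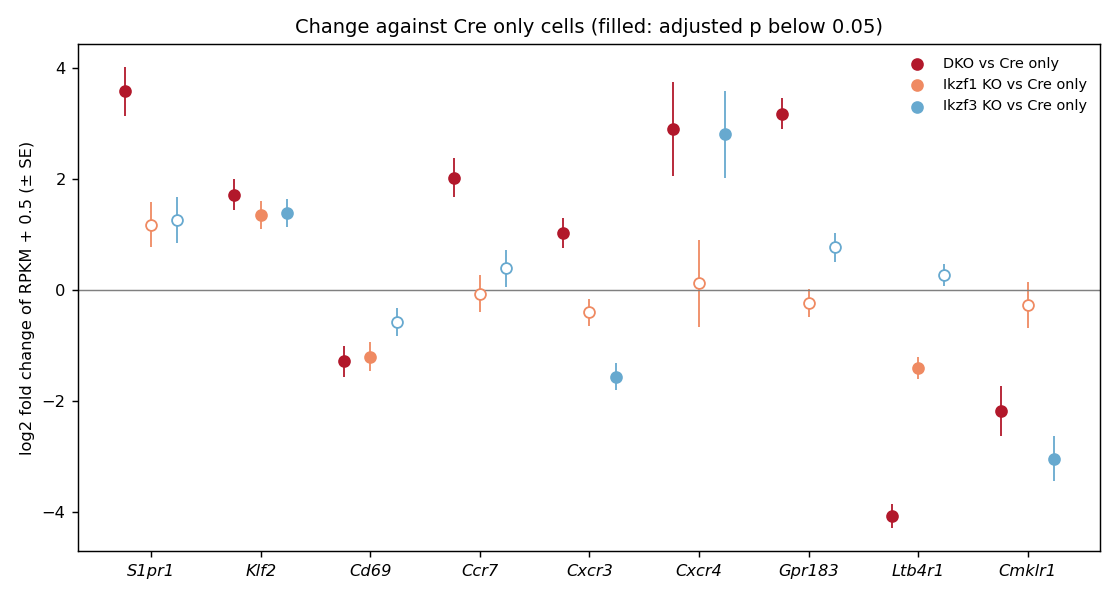
Log2 fold change of RPKM + 0.5 with its standard error for the 9 genes in DKO, Ikzf1 KO and Ikzf3 KO cells, each against Cre only cells; filled points have an adjusted p below 0.05. All 9 DKO points are filled, against 3 of Ikzf1 KO and 4 of Ikzf3 KO.

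S1pr1 (ENSMUSG00000045092; chromosome 3, 115710433 to 115715072 on the minus strand of mm10) encodes the receptor for S1P that draws lymphocytes into blood and lymph. Its level was 28.6, 8.65 and 9.46 RPKM in DKO libraries S5, S6 and S7. In Ikzf1 KO libraries S12 to S15 it was 1.67, 1.92, 2.09 and 2.98 RPKM, and in Ikzf3 KO libraries S1 to S4 it was 1.22, 1.38, 3.08 and 4.68 RPKM. Cre only libraries S16 to S19 had 1.04, 1.07, 0.414 and 0.301 RPKM. Each DKO library lay above every library of the other groups, S5 stood well above the other DKO libraries, and every single-knockout library lay above every Cre only library. S1pr1 rose in DKO cells by 3.58 ± 0.44 on the log2 scale (SE, adjusted p = 6.2e-05), a fold of 12.0, and was called under all 26 alternatives. The single deletions gave 1.19 ± 0.41 in Ikzf1 KO (adjusted p = 0.106) and 1.27 ± 0.41 in Ikzf3 KO cells (adjusted p = 0.0509), neither past the threshold; 4 alternatives called each. DKO cells also exceeded Ikzf1 KO cells by 2.40 ± 0.44 (adjusted p = 0.00341) and Ikzf3 KO cells by 2.31 ± 0.44 (adjusted p = 0.00207). The order of levels was DKO, then Ikzf3 KO and Ikzf1 KO, which did not differ past the threshold (-0.08 ± 0.41 for Ikzf1 KO over Ikzf3 KO), then Cre only.

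Klf2 (ENSMUSG00000055148; chromosome 8, 72319033 to 72321656, plus strand), the transcription factor of lymphocyte egress and quiescence, was the member that rose in all 3 knockout groups. Levels were 20.6, 10.54 and 16.3 RPKM in DKO libraries. They were 12.1, 10.8, 10.4 and 14.2 RPKM in Ikzf1 KO and 14.0, 15.8, 10.97 and 8.70 RPKM in Ikzf3 KO libraries, against 3.26, 2.87, 5.99 and 5.93 RPKM in Cre only libraries. All 11 knockout libraries exceeded the 4 Cre only libraries, and the 3 knockout groups overlapped one another. The rise was 1.72 ± 0.28 on the log2 scale in DKO (adjusted p = 0.000664), 1.36 ± 0.26 in Ikzf1 KO (adjusted p = 0.00588) and 1.39 ± 0.26 in Ikzf3 KO cells (adjusted p = 0.0039). Without S16 and S17, which hold the lowest Cre only values, the single deletions no longer passed (adjusted p = 0.088 in Ikzf1 KO and 0.056 in Ikzf3 KO cells). DKO cells did not differ past the threshold from Ikzf1 KO cells (0.36 ± 0.28, adjusted p = 0.506) or Ikzf3 KO cells (0.33 ± 0.28, adjusted p = 0.409).

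Cd69 (ENSMUSG00000030156; chromosome 6, 129267325 to 129275436, minus strand), an early activation marker whose protein holds S1PR1 inside the cell, ran the other way. It stood at 5.49, 10.3 and 10.3 RPKM in DKO libraries and at 8.54, 10.2, 11.4 and 6.34 RPKM in Ikzf1 KO libraries. Ikzf3 KO libraries had 17.02, 17.98, 10.3 and 12.4 RPKM, and Cre only libraries 27.0, 26.2, 18.1 and 15.3 RPKM. DKO and Ikzf1 KO libraries all lay below the Cre only range, whereas S1 and S2 of Ikzf3 KO fell within it. Cd69 fell by 1.28 ± 0.28 on the log2 scale in DKO (adjusted p = 0.00551) and by 1.20 ± 0.26 in Ikzf1 KO cells (adjusted p = 0.0125). Ikzf3 KO cells gave -0.57 ± 0.26 (adjusted p = 0.138). Without S16 and S17, the highest Cre only libraries, neither fall passed (adjusted p = 0.0755 in DKO and 0.169 in Ikzf1 KO cells). DKO and Ikzf1 KO cells did not differ past the threshold (-0.08 ± 0.28), nor did DKO and Ikzf3 KO cells (-0.71 ± 0.28, adjusted p = 0.0831).

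The list of the S1P system held 12 genes, of which 9 were in the table and 8 were tested. In DKO cells 1 rose (S1pr1) and 1 fell (Sgpl1), beside 8.06% and 10.6% of all genes, with a median log2 change of 0.02. Sgpl1, the lyase that breaks S1P down, stood at 12.3 ± 0.248 RPKM (SD, n = 3) in DKO and 19.2 ± 1.10 RPKM (SD, n = 4) in Cre only cells (log2 -0.63 ± 0.13, adjusted p = 0.00392; 0.0529 without S5, S15, S18 and S19). In Ikzf1 KO cells the receptor S1pr3 rose (1.84 ± 0.51, adjusted p = 0.0467) while S1pr4 (-0.72 ± 0.18, adjusted p = 0.0252) and Sgpl1 (-0.58 ± 0.12, adjusted p = 0.00986) fell; none of the 3 was called without S5, S15, S18 and S19. S1pr3 also lost its call when any single Ikzf1 KO or Cre only library or S7 was left out (adjusted p = 0.0505 to 0.124), and S1pr4 without S12, S13, S14, S18 or S19 (adjusted p = 0.0519 to 0.0872). In Ikzf3 KO cells Spns2, an S1P exporter, rose to 16.4 ± 6.35 RPKM against 5.28 ± 2.22 RPKM in Cre only cells (SD, n = 4 each; 1.56 ± 0.33, adjusted p = 0.00781), a call lost without S3 and S4 (adjusted p = 0.0669), without S18 and S19 (adjusted p = 0.0897) and without S5, S15, S18 and S19 (adjusted p = 0.0691). S1pr5, the receptor by which mouse NK cells leave bone marrow and lymph nodes, was named after its values were seen and did not pass the filter. It ranged from 0.137 to 0.295 RPKM in DKO, 0.348 to 1.09 RPKM in Ikzf1 KO, 0 to 0.667 RPKM in Ikzf3 KO and 0.612 to 0.83 RPKM in Cre only libraries.

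Of the KLF and FOXO trafficking list, 12 of 13 genes were tested. In DKO cells 4 rose and 2 fell, beside 8.06% and 10.6% of all genes, with a median log2 change of 0.08. The IL-7 receptor chain Il7r stood at 4.15 ± 2.84 RPKM (SD, n = 3) in DKO and 0.567 ± 0.606 RPKM (SD, n = 4) in Cre only cells (log2 2.15 ± 0.43, adjusted p = 0.00315). It passed the filter only through DKO libraries, with at most 1.24 RPKM in any other library. Klf3 rose by 1.13 ± 0.16 (adjusted p = 0.000187), Klf2 rose as above, and Klf13 fell by 0.84 ± 0.15 (adjusted p = 0.00183). Foxo1, whose protein activates Klf2 in T cells, was the other gene that fell (-0.63 ± 0.18, adjusted p = 0.0256), and like Klf4 it was named after its values were seen. In Ikzf1 KO cells Klf2 and Klf3 rose, Klf3 with no call without S12, S14, S15 or S18 alone (adjusted p = 0.0502 to 0.064), without S18 and S19 (adjusted p = 0.143) or without S5, S15, S18 and S19 (adjusted p = 0.17). In Ikzf3 KO cells Klf2 and Klf4 rose and Klf13 fell, a fall not called without S18 and S19 (adjusted p = 0.0764) or without S5, S15, S18 and S19 (adjusted p = 0.0753). Il7r is made by T cells too, of whose markers Cd3d, Cd3e and Trac rose in DKO cells as given above. Cd3g did not pass, and Cd8a stayed within the Cre only range. What part T cell transcripts have in the Il7r values was not tested.

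Ccr7 (ENSMUSG00000037944; chromosome 11, 99144196 to 99155077, minus strand), the receptor that guides cells to CCL19 and CCL21 in lymph nodes, was low throughout. It had 3.67, 1.96 and 2.45 RPKM in DKO libraries, which rest on 108, 79 and 75 reads. Ikzf1 KO libraries had 0.2005, 0.334, 0.305 and 0.112 RPKM and Ikzf3 KO libraries 0.170, 0.115, 1.53 and 0.708 RPKM. Cre only libraries had 0.559, 0.344, 0.0751 and 0.155 RPKM, which rest on 16, 10, 2 and 5 reads. Every DKO library lay above every other library, with S3 of Ikzf3 KO the nearest. Outside DKO only S3 reached 1 RPKM, so Ccr7 passed the filter through the group where it was high. Ccr7 rose by 2.03 ± 0.36 on the log2 scale in DKO cells (adjusted p = 0.00131), but by 1.51 without S5, S15, S18 and S19, where the adjusted p was 0.0729. Ikzf1 KO (-0.06 ± 0.33, adjusted p = 0.966) and Ikzf3 KO cells (0.40 ± 0.33, adjusted p = 0.407) did not pass the threshold. DKO cells exceeded Ikzf1 KO cells by 2.09 ± 0.36 (adjusted p = 0.00215) and Ikzf3 KO cells by 1.64 ± 0.36 (adjusted p = 0.00541; 0.0646 in a fit of these 2 groups alone and 0.0506 without S5, S15, S18 and S19).

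Cxcr3 (ENSMUSG00000050232; chromosome X, 101731535 to 101734269, minus strand), the receptor for the interferon-induced ligands CXCL9 and CXCL10, separated all 4 groups. It was 80.2, 61.0 and 50.7 RPKM in DKO libraries. It was 22.9, 22.1, 22.9 and 24.0 RPKM in Ikzf1 KO and 12.8, 13.9, 4.91 and 11.2 RPKM in Ikzf3 KO libraries, against 31.0, 31.0, 26.9 and 33.0 RPKM in Cre only libraries. No pair of groups overlapped, and the order was DKO, Cre only, Ikzf1 KO, Ikzf3 KO. The double deletion gave a rise of 1.04 ± 0.26 on the log2 scale (adjusted p = 0.0137) and the Ikzf3 deletion alone a fall of 1.56 ± 0.24 (adjusted p = 0.00131). The Ikzf1 deletion gave -0.40 ± 0.24 (adjusted p = 0.426), which passed under 3 alternatives. DKO cells exceeded Ikzf1 KO cells by 1.43 ± 0.26 (adjusted p = 0.00357) and Ikzf3 KO cells by 2.59 ± 0.26 (adjusted p = 1.12e-05). Without S5, S15, S18 and S19 the excess over Ikzf1 KO cells had an adjusted p of 0.0659. The rise against Cre only cells was lost without S5 (0.86, adjusted p = 0.0567), without S16 and S17 (adjusted p = 0.066), without S18 and S19 (adjusted p = 0.0691) and without S5, S15, S18 and S19 (0.83, adjusted p = 0.197).

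Cxcr4 (ENSMUSG00000045382; chromosome 1, 128588199 to 128592293, minus strand), the receptor for CXCL12 that keeps cells in bone marrow, had the largest standard errors of the 9 genes. It was 15.3, 21.8 and 29.8 RPKM in DKO and 3.23, 4.66, 3.78 and 0.762 RPKM in Ikzf1 KO libraries. Ikzf3 KO libraries had 7.82 and 8.06 RPKM in S1 and S2 but 42.0 and 57.8 RPKM in S3 and S4, and Cre only libraries had 7.04 and 7.33 RPKM in S16 and S17 but 0.493 and 0.744 RPKM in S18 and S19. DKO lay above all Ikzf1 KO and Cre only libraries, and Ikzf3 KO spanned the DKO range. Cxcr4 rose by 2.91 ± 0.85 on the log2 scale in DKO (adjusted p = 0.0276) and by 2.81 ± 0.78 in Ikzf3 KO cells (adjusted p = 0.0302), and Ikzf1 KO cells gave 0.13 ± 0.78 (adjusted p = 0.968). Both rises depended on single libraries. In DKO cells the call was lost without S6 (adjusted p = 0.0898), S7 (0.0969), S18 (0.0853) or S19 (0.0666), and the change was 1.52 without S18 and S19 (adjusted p = 0.27) and 1.76 without S5, S15, S18 and S19 (adjusted p = 0.218). In Ikzf3 KO cells it was lost without S3 (adjusted p = 0.0843), S4 (0.0962), S18 (0.0904) or S19 (0.0818), with a change of 1.53 without S3 and S4 (adjusted p = 0.244) and 1.42 both without S18 and S19 (adjusted p = 0.284) and without S5, S15, S18 and S19 (adjusted p = 0.274). With array weights, which give less weight to variable libraries, neither passed (adjusted p = 0.078 in DKO and 0.251 in Ikzf3 KO cells).

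Of 23 chemokine receptors listed, 12 were in the table and 9 were tested. In DKO cells 4 rose and none fell, beside 8.06% and 10.6% of all genes, and the median log2 change was 0.67. The 4 were Ccr7, Cxcr3, Cxcr4 and Ccr2, the receptor for CCL2 that brings cells out of bone marrow into inflamed tissue. Ccr2 stood at 225 ± 24.8 RPKM (SD, n = 3) in DKO and 141 ± 8.55 RPKM (SD, n = 4) in Cre only cells (0.67 ± 0.14, adjusted p = 0.00357). Without S5, S15, S18 and S19 none of the 4 was called (Ccr2, adjusted p = 0.0535). None was called by limma in Ikzf1 KO cells, where 2 had an unadjusted p below 0.05 and up to 5 were called under an alternative. In Ikzf3 KO cells Cxcr4 rose while Cxcr3 and Xcr1 (-1.37 ± 0.41, adjusted p = 0.0412) fell, and the median log2 change was -0.46. Xcr1 lost its call without S3 and S4 (-0.73, adjusted p = 0.299), without S5, S15, S18 and S19 (adjusted p = 0.0549) and without S3, S4, S6, S12, S13, S14, S15, S16, S17 or S18 alone (adjusted p = 0.0525 to 0.121). Cxcr6, a receptor of liver-resident NK and T cells, stood at 173 ± 98.6 RPKM (SD, n = 3) in DKO, 77.2 ± 14.4 RPKM in Ikzf1 KO, 43.3 ± 22.04 RPKM in Ikzf3 KO and 109 ± 57.5 RPKM in Cre only cells (SD, n = 4 each), with no call against Cre only cells.

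Gpr183 (ENSMUSG00000051212; chromosome 14, 121952551 to 121965195, minus strand), also named EBI2, guides lymphocytes along oxysterol gradients in spleen and lymph nodes. It was 39.5, 22.9 and 18.9 RPKM in DKO libraries. Ikzf1 KO libraries had 1.75, 2.34, 2.07 and 1.82 RPKM, Ikzf3 KO libraries 4.99, 5.29, 3.30 and 4.45 RPKM, and Cre only libraries 3.04, 3.63, 1.36 and 2.08 RPKM. The DKO libraries lay far above the rest, the Ikzf1 KO values fell inside the Cre only range, and 3 of the 4 Ikzf3 KO values lay above it. The DKO rise was 3.18 ± 0.28 on the log2 scale (adjusted p = 2.81e-06), a fold of 9.07, and was called under all 26 alternatives. Ikzf1 KO cells gave -0.22 ± 0.26 (adjusted p = 0.745) and Ikzf3 KO cells 0.77 ± 0.26 (adjusted p = 0.0562), which passed under 4 alternatives. DKO cells exceeded Ikzf1 KO cells by 3.40 ± 0.28 (adjusted p = 5.56e-06) and Ikzf3 KO cells by 2.41 ± 0.28 (adjusted p = 3.31e-05). Gpr183 was the single gene of the 5 on the oxysterol list that was tested.

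**Figure D3:**
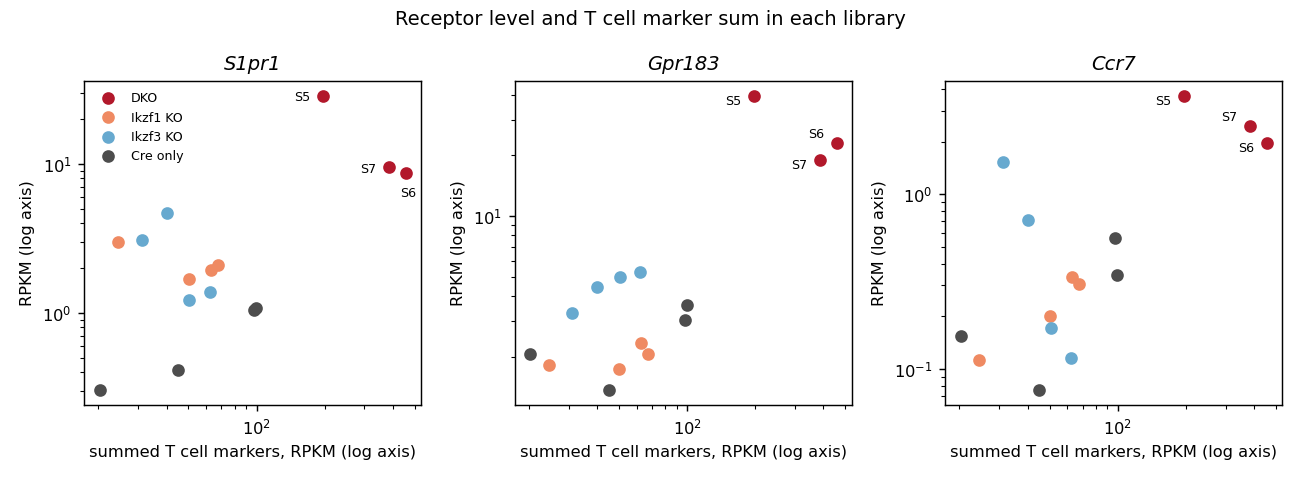
RPKM of S1pr1, Gpr183 and Ccr7 in each of the 15 libraries (vertical log axis) against the summed RPKM of 6 T cell markers (horizontal log axis). Of the DKO libraries S5 has the lowest marker sum, 197 RPKM, and the highest level of each receptor. Of the Cre only libraries S16 and S17 have both the highest marker sums and the highest levels of each receptor.

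Ltb4r1 (ENSMUSG00000046908; chromosome 14, 55765962 to 55768494, plus strand) encodes BLT1, the high-affinity receptor for the chemoattractant leukotriene B4, and had the largest change and the highest Cre only level of the 9 genes. It was 3.37, 4.96 and 7.18 RPKM in DKO libraries. Ikzf1 KO libraries had 34.2, 33.5, 35.5 and 33.3 RPKM, Ikzf3 KO libraries 87.3, 107, 136 and 114 RPKM, and Cre only libraries 85.9, 113, 99.4 and 70.3 RPKM. DKO, Ikzf1 KO and Cre only libraries formed 3 ranges with no overlap, and the Ikzf3 KO range overlapped that of Cre only. Ltb4r1 fell by 4.06 ± 0.21 on the log2 scale in DKO (adjusted p = 2.58e-08), a fold of 16.7, and by 1.40 ± 0.20 in Ikzf1 KO cells (adjusted p = 0.00073). Ikzf3 KO cells gave 0.27 ± 0.20 (adjusted p = 0.341). DKO cells lay below Ikzf1 KO cells (-2.66 ± 0.21, adjusted p = 5.56e-06) and below Ikzf3 KO cells (-4.33 ± 0.21, adjusted p = 1.26e-08). Each of these calls was made under all 26 alternatives.

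The leukotriene and prostaglandin list had 10 of 15 genes tested. Of these 4 rose and 2 fell in DKO cells, beside 8.06% and 10.6% of all genes, with a median log2 change of -0.25. Alox5, the enzyme that starts leukotriene synthesis, fell with Ltb4r1, at 1.23 ± 0.293 RPKM (SD, n = 3) in DKO and 12.0 ± 4.49 RPKM (SD, n = 4) in Cre only cells (-2.77 ± 0.50, adjusted p = 0.0015). Alox5ap, which hands the substrate to that enzyme, stood at 3.54 ± 1.72 RPKM in DKO and 0.173 ± 0.124 RPKM in Cre only cells (2.49 ± 0.35, adjusted p = 0.000187). Cysltr1, a receptor for cysteinyl leukotrienes, stood at 3.65 ± 0.667 RPKM in DKO and 0.0427 ± 0.0606 RPKM in Cre only cells (2.93 ± 0.22, adjusted p = 5.83e-07). Cysltr1 passed the filter only through DKO libraries, with at most 1.11 RPKM in any other library. The prostaglandin E2 receptor Ptger4 rose in DKO (0.91 ± 0.16, adjusted p = 0.0013) and fell in Ikzf3 KO cells (-1.60 ± 0.15, adjusted p = 3.94e-05). Ptgdr2, a prostaglandin D2 receptor, was the other gene that rose in DKO cells (0.99 ± 0.32, adjusted p = 0.0459). In Ikzf1 KO cells Cysltr1, Alox5ap and Ptger3 rose and Ltb4r1 fell, and in Ikzf3 KO cells Ptger4 and Lta4h fell. The Alox5ap rise in Ikzf1 KO cells (1.61, adjusted p = 0.00845) was not called without S18 and S19 (1.45, adjusted p = 0.0609) or without S5, S15, S18 and S19 (1.35, adjusted p = 0.0557). Ptgdr2, Ptger3 and Lta4h were named after their values were seen.

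**Figure D4:**
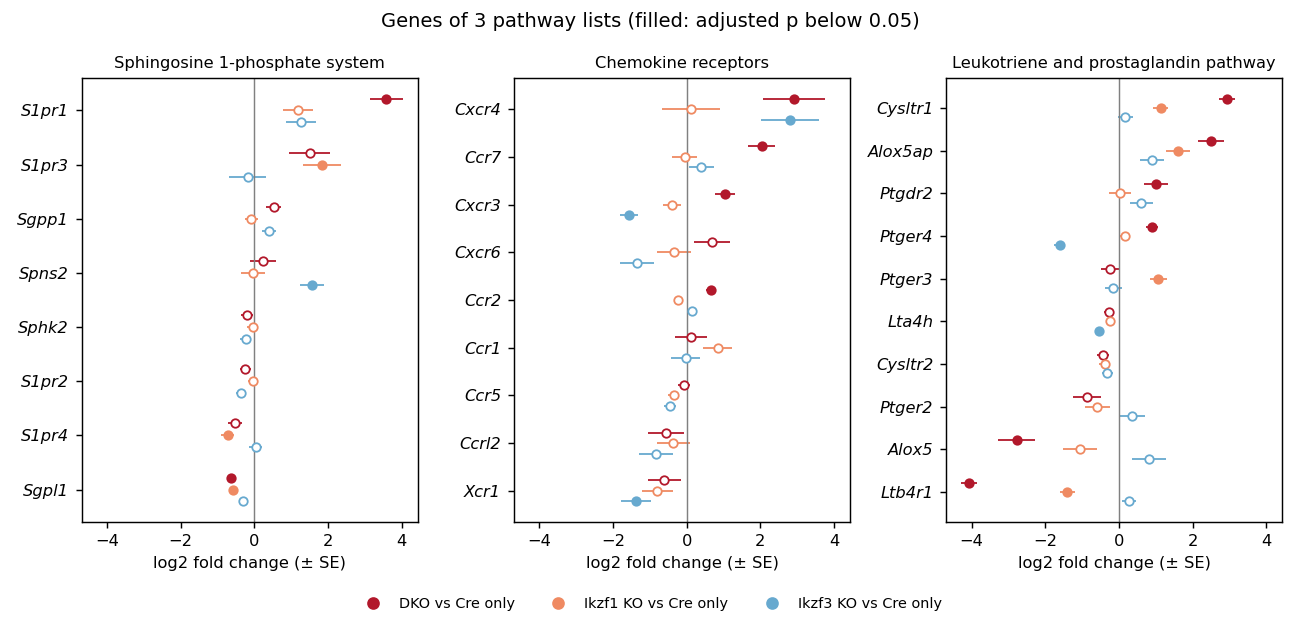
Log2 fold change with its standard error against Cre only cells for the tested genes of 3 lists, in DKO, Ikzf1 KO and Ikzf3 KO cells from top to bottom for each gene; filled points have an adjusted p below 0.05. Ltb4r1 and Alox5 lie at the low end and Cysltr1 and Alox5ap at the high end of the leukotriene and prostaglandin list in DKO cells.

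Cmklr1 (ENSMUSG00000042190; chromosome 5, 113612354 to 113650426, minus strand), the receptor for the chemoattractant chemerin, had its lowest level in Ikzf3 KO cells. It was 2.90, 0.389 and 0.436 RPKM in DKO libraries and 5.22, 3.12, 3.72 and 8.50 RPKM in Ikzf1 KO libraries. Ikzf3 KO libraries had 0.420, 0.568, 0.0233 and 0.218 RPKM, which rest on 17, 17, 1 and 9 reads, and Cre only libraries had 6.84, 8.53, 4.64 and 4.33 RPKM. DKO and Ikzf3 KO libraries lay below every Ikzf1 KO and Cre only library, and S5 stood near the lowest of these. Cmklr1 fell by 3.03 ± 0.41 on the log2 scale in Ikzf3 KO (adjusted p = 0.000484) and by 2.17 ± 0.44 in DKO cells (adjusted p = 0.00368). Ikzf1 KO cells gave -0.27 ± 0.41 (adjusted p = 0.826). DKO cells lay below Ikzf1 KO cells (-1.91 ± 0.44, adjusted p = 0.0169), a call lost without S6 (adjusted p = 0.111), S7 (0.0839) or S12 (0.0501), and against Ikzf3 KO cells no difference passed the threshold (0.86 ± 0.44, adjusted p = 0.178). Without S16 and S17 the DKO fall against Cre only cells had an adjusted p of 0.0501. Of the other tested genes of its list, the complement receptors C5ar1 (-2.04 ± 0.85, adjusted p = 0.111) and C5ar2 (-1.23 ± 0.49, adjusted p = 0.0957) did not pass in DKO cells.

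Of 27 tested genes that carry or end the signal of such receptors, 13 fell, 1 rose and 13 did not pass in DKO cells, beside 10.6% and 8.06% of all genes that fell and rose, and their median log2 change was -0.49. These 14 calls became 6 without S6, 8 without S7, 8 without S16 and S17, 6 without S18 and S19, and 7 without S5, S15, S18 and S19, while other alternatives gave 10 to 20. Arrb1, an arrestin that switches receptors off, stood at 16.99 ± 8.80 RPKM (SD, n = 3) in DKO and 59.9 ± 25.3 RPKM (SD, n = 4) in Cre only cells (-1.80 ± 0.32, adjusted p = 0.00156). Rgs16, which shortens G protein signals, fell in DKO (-2.88 ± 0.52, adjusted p = 0.00156) and in Ikzf1 KO cells (-1.85 ± 0.48, adjusted p = 0.0338; 0.0649 to 0.0994 without any single Ikzf1 KO library or without S16, S17 or S18, and 0.0981 without S5, S15, S18 and S19). The G protein subunit gene Gng2 fell by 1.29 ± 0.19 in DKO (adjusted p = 0.000356) and by 0.95 ± 0.18 in Ikzf1 KO cells (adjusted p = 0.00567; 0.0576 without S16 and S17 and 0.0512 without S5, S15, S18 and S19). Rgs3 fell by 0.69 ± 0.14 in DKO (adjusted p = 0.00361) and by 0.85 ± 0.13 in Ikzf3 KO cells (adjusted p = 0.00114). Of this list 3 genes fell in Ikzf1 KO cells (1 to 16 called over the alternatives), and 4 fell and 1 rose in Ikzf3 KO cells (2 to 10 called). Over all genes 2.78% fell in Ikzf1 KO cells, and 7.88% fell and 6.3% rose in Ikzf3 KO cells.

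Set against the single knockouts, DKO cells had 4 members higher and 2 lower than Ikzf1 KO cells, where 3.76% and 3.72% of all genes were higher and lower. They had 4 higher and 1 lower than Ikzf3 KO cells, where the shares over all genes were 10.2% and 9.85%. S1pr1, Ccr7, Cxcr3 and Gpr183 were the higher ones and Ltb4r1 was lower in both comparisons, with Cmklr1 lower against Ikzf1 KO cells as well. The comparison of the single knockouts, added after values were seen, gave 2 members higher and 3 lower in Ikzf1 KO than in Ikzf3 KO cells, beside 9.01% and 8.68% of all genes. Cxcr3 (1.16 ± 0.24, adjusted p = 0.00579) and Cmklr1 (2.77 ± 0.41, adjusted p = 0.000469) were higher in Ikzf1 KO cells. Ltb4r1 (-1.67 ± 0.20, adjusted p = 7.63e-05), Gpr183 (-0.99 ± 0.26, adjusted p = 0.0179) and Cxcr4 (-2.68 ± 0.78, adjusted p = 0.0313) were lower there. Cxcr4 was lost without S3 and S4 (-1.40, adjusted p = 0.29), without S5, S15, S18 and S19 (adjusted p = 0.0548) and under 6 other alternatives, and Gpr183 without S12 (adjusted p = 0.0572) or S15 (adjusted p = 0.0507).

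Whether the DKO change equalled the sum of the single changes was tested as the interaction of the deletions. Cxcr3, Gpr183 and Ltb4r1 departed from the sum; 2 members lay above it and 1 below, beside 3.63% and 2.92% of all genes. Cxcr3 changed by 1.04 in DKO cells, while its single changes summed to -1.95, a difference of 2.99 ± 0.36 (adjusted p = 0.000617). Gpr183 changed by 3.18 against a sum of 0.55, a difference of 2.63 ± 0.38 (adjusted p = 0.0012). Ltb4r1 changed by -4.06 against a sum of -1.12, a difference of -2.94 ± 0.29 (adjusted p = 0.000145). These 3 calls were made under all 25 alternatives run. Ccr7 differed by 1.69 ± 0.49 (adjusted p = 0.0538), S1pr1 by 1.13 ± 0.60 (adjusted p = 0.297), Cmklr1 by 1.13 ± 0.60 (adjusted p = 0.305), Klf2 by -1.03 ± 0.38 (adjusted p = 0.133), Cd69 by 0.48 ± 0.38 (adjusted p = 0.489) and Cxcr4 by -0.02 ± 1.15 (adjusted p = 0.992), none past the threshold. Among the named list genes Ptger4 (2.35 ± 0.22, adjusted p = 9.2e-05) and Ccr2 (0.76 ± 0.18, adjusted p = 0.0251) lay above the sum. Alox5 (-2.54 ± 0.68, adjusted p = 0.0375) lay below it. Cysltr1 (1.61 ± 0.30, adjusted p = 0.00566) and Il7r (2.30 ± 0.59, adjusted p = 0.0319) also lay above the sum. Like Ccr7, these 2 passed the filter only through DKO libraries. The filter thus favoured a value above the sum for them, and their calls are no separate evidence of a departure. Interactions of the named list genes were not rerun under the alternatives.

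**Figure D5:**
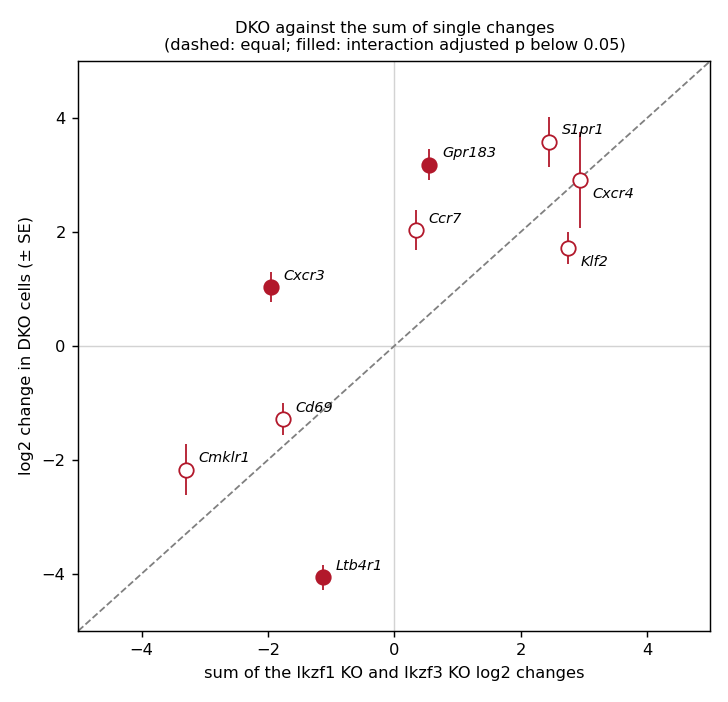
Log2 change of the 9 genes in DKO cells with its standard error (vertical axis) against the sum of the Ikzf1 KO and Ikzf3 KO changes (horizontal axis), all against Cre only cells; the dashed line marks equality and filled points have an interaction adjusted p below 0.05. Cxcr3 and Gpr183 lie above the line by 2.99 and 2.63, and Ltb4r1 lies below it by 2.94.

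The genes whose pattern over the 15 libraries was most like that of each member were taken among 6321 genes with a mean of at least 5 RPKM, by Pearson correlation of log2 values, as a description. The libraries share genotypes, so a correlation reflects the groups as well as the libraries within them. Nptn came first for both S1pr1 (r = 0.95) and Gpr183 (r = 0.93), and the Ikaros family gene Ikzf2 was among the 3 nearest of S1pr1 (r = 0.90) and Ccr7 (r = 0.89). Tcf7, a transcription factor of naive T cells and early NK cells, came first for Ccr7 (r = 0.93). The interferon gamma gene Ifng came first for Cd69 (r = 0.92) and Trim21 for Cxcr3 (r = 0.97). The inhibitory receptor gene Klrc1 came first for Cxcr4 (r = 0.95), Acsbg1 for Ltb4r1 (r = 0.97), Aldh2 for Klf2 (r = 0.84) and Ikzf3 itself for Cmklr1 (r = 0.94).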

How the data were processed

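RNA of 15 libraries of cultured mouse NK cells was sequenced in 4 genotypes. Tools named in the submitters' processing notes are STAR and featureCounts with limma 3.34.9, on build mm10; settings are not given in the sources used here. The authors deposited 1 table of RPKM for 11736 genes, with no counts; every column was used. Column names give genotype but not culture, and were assigned by group size. Exon lengths (GENCODE M21, 11732 genes found) and the steps between values gave whole reads, within 0.02 read, for 11291 genes (96.2%).

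Genes with RPKM of at least 1 in at least 3 libraries (10032) were fitted as log2(RPKM + 0.5) in limma 3.58.1 under R 4.3.3, with group means, trend and robust moderation and 11 residual degrees of freedom. Tests were 2-sided, with Benjamini-Hochberg adjustment over all genes and a threshold of 0.05; 7 contrasts were run, that between the single knockouts added later. The fit was tested on simulated data.

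Members and lists were chosen with earlier results of these data known. Named were all members, up to 4 other genes of each of 7 lists (smallest adjusted p against Cre only), and the 3 genes of most like pattern per member; 1 gene of the lists is not reported here. Alternatives were other pseudocounts, no filter, rescaling, plain moderation, fits of the groups compared alone, array weights and libraries left out; leaving out S5, S15, S18 and S19 together was added after seeing the data. Figures were drawn with Python 3.11.15, numpy 2.4.6, pandas 2.3.3 and matplotlib 3.10.9.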

Additional observations from a re-analysis of the deposited data

Results flagged for a closer look

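Cxcr3, Gpr183 and Ltb4r1 are listed because the effect of deleting one gene differed with the state of the other, by the interaction term of the limma fit. The difference between the DKO change and the sum of the single changes was 2.99 for Cxcr3, 2.63 for Gpr183 and -2.94 for Ltb4r1 on the log2 scale (adjusted p = 0.000617, 0.0012 and 0.000145). Put as the effect of losing Ikzf1, Cxcr3 rose by 2.59 in DKO against Ikzf3 KO cells, while Ikzf1 KO against Cre only cells gave -0.40. For Gpr183 the same 2 values were 2.41 and -0.22, and for Ltb4r1 they were -4.33 and -1.40. Among the 27 member values over groups of 4 libraries no library stood apart by Dixon's criterion, and DKO, with 3 libraries, was not tested. That criterion looks for a single library and cannot flag a pair set against a pair, as for Cxcr4 in Ikzf3 KO and Cre only libraries.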

How the results depend on the processing

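Of 35 calls on members over 7 comparisons, 21 were kept under every alternative, 14 were lost under at least 1 and none changed sign; of 28 results without a call, 11 were called under at least 1 alternative and 12 changed sign. The Ikzf1 KO count against Cre only of 3 members was 5 with array weights, 5 with only the groups compared, 5 without S3 and S4 and 1 without S16 and S17; the interaction count of 3 was 6 with array weights, and the count of 5 between the single knockouts was 3 to 5 as each library was left out. Signs changed in Ikzf1 KO against Cre only without S16 and S17 for Ccr7 (0.26), Gpr183 (0.18) and Cmklr1 (0.089), and for Cxcr4 with array weights (-0.13), without S18 and S19 (-1.27) and without S5, S15, S18 and S19 (-0.82). With array weights and without S3 and S4 they changed for Ccr7 in Ikzf3 KO against Cre only (-0.34 and -0.25) and in Ikzf1 KO against Ikzf3 KO (0.22 and 0.19), and for S1pr1 in Ikzf1 KO against Ikzf3 KO (0.41 and 0.55). Klf2 in DKO against Ikzf3 KO was -0.26 with array weights and Cd69 in DKO against Ikzf1 KO was 0.047 without S5, S15, S18 and S19. The Cxcr4 interaction was 0.035 with pseudocount 1, 1.27 with array weights, 1.25 without S3 and S4, 1.37 without S18 and S19 and 1.16 without S5, S15, S18 and S19. As each library was left out, results that changed sign ran from -0.19 to 0.10 (Ccr7) and -0.39 to 0.60 (Cxcr4) in Ikzf1 KO against Cre only, -0.24 to 0.20 (Cd69, DKO against Ikzf1 KO), -0.33 to 0.61 (Cxcr4, DKO against Ikzf3 KO), -0.32 to 0.21 (S1pr1) and -0.18 to 0.092 (Klf2) in Ikzf1 KO against Ikzf3 KO, and -0.50 to 0.49 (Cxcr4 interaction). Over all genes the calls numbered 1872 (976 to 3642 over the alternatives) in DKO, 634 (332 to 3746) in Ikzf1 KO and 1423 (431 to 2985) in Ikzf3 KO against Cre only, 750 (335 to 2125) in DKO against Ikzf1 KO, 2012 (664 to 3080) in DKO against Ikzf3 KO, 1775 (869 to 3334) in Ikzf1 KO against Ikzf3 KO and 657 (344 to 1447) for the interaction. Beyond fewer libraries in the fits that leave some out, the cause of these changes was not tested. No setting moved the median change of all genes past 0.0335. No paired analysis was possible because the columns do not carry the replicate numbers of the labels. Depth limits Ccr7 and Cmklr1, which rest on as few as 2 and 1 reads in a library.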
